A study of Mus musculus with 8 samples.

Results

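The Hox-cluster microRNAs (miRNAs) mmu-mir-10a, mmu-mir-10b, mmu-mir-196a, mmu-mir-196b and mmu-mir-615 were followed in mouse haematopoietic stem and progenitor cells with and without Tsc1. They were taken by name alone: each probe whose name, without species prefix, arm, copy number and form suffix, gave 1 of these 5 stems. This gave 8 of 521 rows of the mature table and 6 of 300 rows of the precursor table, from 5 of the 340 stems on the arrays. The mature rows were miR-615, miR-10b, miR-196b, a pair for miR-10a (named 10a and 10a-1) and 3 for miR-196a (named 196a, 196a-1 and 196a-2). The precursor rows were miR-615, miR-196b, miR-196a-1, miR-196a-2, miR-10a-1 and miR-10a-2, and by this rule miR-10b had 0 precursor rows.

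The cells were bone marrow cells without lineage markers and with cKit and Sca1 (LSK cells). The donors were female C57BL/6 mice, 10 weeks old, and all of them carried floxed Tsc1 alleles (Tsc1f/f). The 4 Tsc1 cKO mice carried the Mx1-Cre transgene (Mx1-Cre+) and the 4 Ctrl littermates did not (Mx1-Cre-). All 8 mice, controls included, received 7 injections of 400 µg of the double-stranded RNA pIpC (2 mg/ml), and cells were sorted 10 days after the last. Mx1-Cre is driven by an interferon-inducible promoter that is active in blood cells and in other tissues such as liver. The design text also speaks of alleles to inactivate Raptor, which the genotype labels do not name. LSK cells are defined by surface proteins, which miRNA probes do not read. The loss of Tsc1 could not be checked on these arrays for the same reason.

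Tsc1, with its partner Tsc2, holds back mTORC1, the kinase complex that drives growth when nutrients are present. The miR-10 and miR-196 genes lie inside the Hox clusters between genes for homeodomain factors, and miR-615 lies within Hoxc5. Several Hox factors, Hoxb4 and Hoxa9 among them, act in the self-renewal of blood stem cells. miR-196 directs cleavage of the Hoxb8 transcript in the mouse, miR-10 acts on Hox transcripts in several vertebrates, and miR-196b is induced in leukaemias driven by MLL fusions.

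The mature sequences show which probes could read the same RNA, and they are given from RefSeq (GRCm38.p6) 5′ to 3′ with the seed, bases 2 to 8, in capitals. The array names give no arm, so the 5p arm is shown for miR-10 and miR-196 and both arms for miR-615. All 6 member genes had mature sequences in the RefSeq table.
miR-10a-5p (HoxB, chr11:96317186-96317208, plus strand): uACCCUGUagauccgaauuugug
miR-10b-5p (HoxD, chr2:74726074-74726096, plus strand): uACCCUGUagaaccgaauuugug
miR-196a-5p (HoxB copy, chr11:96265187-96265208, plus strand, and HoxC copy, chr15:102973365-102973386, plus strand): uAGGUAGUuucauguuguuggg
miR-196b-5p (HoxA, chr6:52230129-52230150, minus strand): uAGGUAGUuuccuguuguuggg
miR-615-3p (HoxC, chr15:103014969-103014990, plus strand): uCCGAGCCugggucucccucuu
miR-615-5p (HoxC, chr15:103014926-103014947, plus strand): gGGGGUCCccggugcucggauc

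miR-10a and miR-10b differed by 1 of 23 bases (U12A, miR-10a first, counted from the 5′ end), and miR-196a and miR-196b by 1 of 22 (A12C, miR-196a first). Each pair shared its seed, and no other of the 1679 mature sequences in the table had either seed. The seed of miR-196, AGGUAGU, stands in let-7a at bases 3 to 9, shifted by 1 base. Neither arm of miR-615 shared its seed with another sequence in the table. With 63.6% G and C in the 3p arm and 77.3% in the 5p arm, miR-615 also stood above the median of 52.2% for all mature sequences, while the 5p arms of miR-10 and miR-196 held 40.9% to 45.5%.

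In RefSeq, Mir10a lies inside the span of Hoxb3 between Hoxb5 and Hoxb4, Mir196a-1 between Hoxb13 and Hoxb9, Mir196a-2 between Hoxc10 and Hoxc9, and Mir196b between Hoxa9 and Hoxa10. Mir10b lies within the spans of Hoxd3 and Hoxd4, and Mir615 within that of Hoxc5. miR-196a thus has a copy in 2 clusters whose mature RNA is the same. The hairpins of these copies are shown because the array has precursor probes for both; the mature part, in capitals, is the same in each.
Mir196a-1 (chr11:96265164-96265265, plus strand): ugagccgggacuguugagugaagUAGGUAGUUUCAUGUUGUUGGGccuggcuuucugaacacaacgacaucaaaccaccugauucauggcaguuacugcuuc
Mir196a-2 (chr15:102973350-102973434, plus strand): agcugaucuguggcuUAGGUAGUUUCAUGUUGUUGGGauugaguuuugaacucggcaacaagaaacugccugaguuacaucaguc
RefSeq lists 1 gene for miR-10a, so the suffixes 10a-1 and 10a-2 of the array do not stand for genomic copies, and the 3 probes named for miR-196a cannot tell its 2 genes apart by the mature sequence.

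With 1 array per mouse, precision is set by having 4 arrays in a group. The deposited values are intensities on a linear scale, and differences below are Tsc1 cKO minus Ctrl in log2 units. The background of an array was the most common log2 intensity over both tables. Arrays 1 and 2 of each group had a background intensity of 32361.7 to 33456.5, and arrays 3 and 4 of 24356.2 to 25638.1, so differences within each of these brightness sets are also given. A probe is called bright where it lay on average more than 1 log2 unit above background, and 93 of 433 mature and 34 of 274 precursor names were bright. Tsc1 cKO 4 had 74 bright mature names, against 93 to 112 on the other arrays. Of the cell type markers, 0 of 11 stromal or endothelial and 1 of 23 non-haematopoietic names were bright. The 11 HSC-enriched names had a mean of 0.69 to 1.32 log2 units above background on the Ctrl arrays and -0.18 to 0.68 on the Tsc1 cKO arrays. Of these 11 names 3 were bright: miR-130a, miR-126-5p and miR-155, with differences of -0.93, -0.83 and 0.0055. That list also holds miR-125, miR-99a and let-7e, which were not bright. Values for miR-125 and miR-99a are given below, and let-7e differed by -0.81 (SE 0.47). The lymphoid marker miR-150 stood at 0.96 to 1.68 in Ctrl and 0.51 to 0.89 in Tsc1 cKO, and the mean of 3 myeloid names at 2.14 to 2.73 and 1.48 to 2.64. The mean of 3 erythroid names was -0.43 to 0.26 in Ctrl and 0.06 to 0.72 in Tsc1 cKO, and 0 of them were bright. These 3 names did not move together: miR-486 differed by 1.35 (SE 0.57), miR-144 by 0.03 (SE 0.21) and miR-451 by -0.28 (SE 0.25). The part of these shifts in the results below was not tested.

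Mature Hox-cluster miRNAs were lower in Tsc1 cKO for 7 of 8 probe names, where 64.9% of all mature names were lower, and none of the 8 passed the test. limma called 0 of 433 mature names at an adjusted p under 0.05 (0%), in either direction. At an unadjusted p under 0.05 it gave 19 names, or 4.39%, and 2 of the 8 members, miR-615 and miR-196a-2. The median difference of the members was -0.55 (range -0.89 to 0.45), that of all mature names -0.04, and that of the 93 bright names -0.24. The split of all names moved with the scaling and with Tsc1 cKO 4. The share of mature names that were lower was 49.9% with array medians centred, 42.3% after quantile normalization and 35.6% without Tsc1 cKO 4. For the 93 bright names these shares were 76.3%, 51.6% and 49.5%. In the same order, 7, 6 and 6 of the 8 members were lower, with medians of -0.51, -0.40 and -0.33. In bulk RNA, fewer cells of a kind and less of a miRNA in each cell cannot be told apart.

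**Figure D1:**
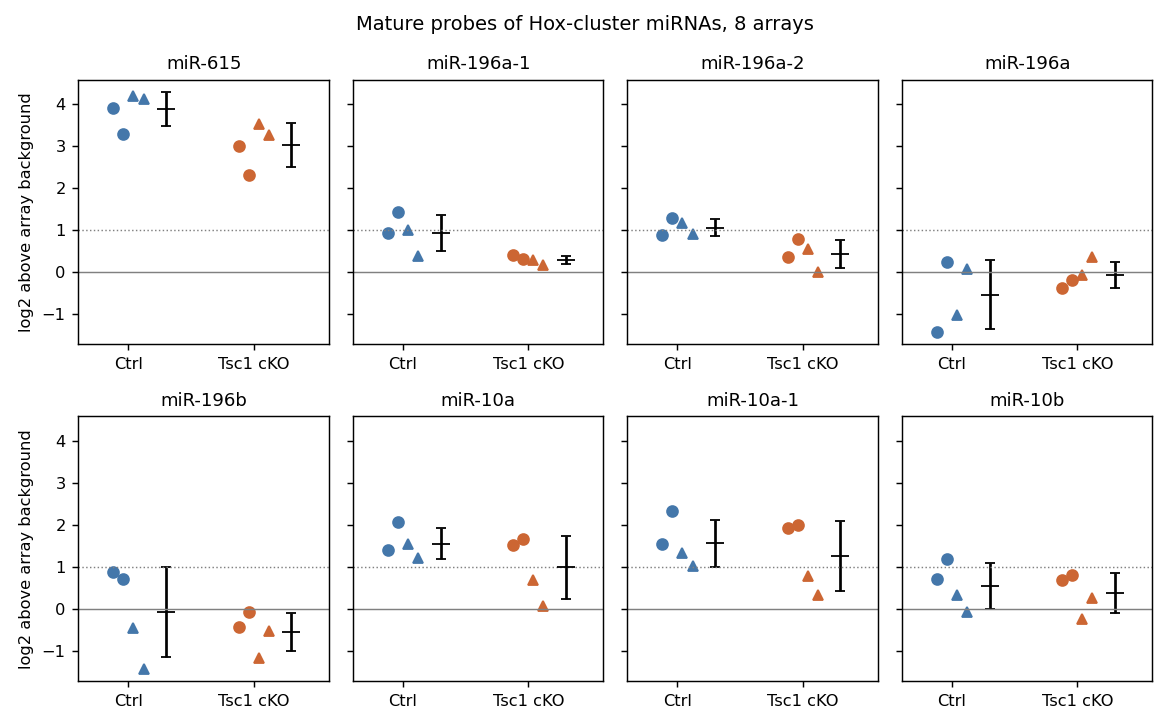
Mature probes of the Hox-cluster miRNAs, as log2 units above the background of the same array (y axis) in the 4 Ctrl and 4 Tsc1 cKO arrays; circles are arrays 1 and 2, triangles arrays 3 and 4, bars the mean and SD, and the dotted line the limit for bright. miR-615 lay above the dotted line on all 8 arrays, while miR-196a and miR-196b lay below it on all 8.

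miR-615 had intensities of 504271, 323039.5, 469787 and 444748.5 on Ctrl arrays 1 to 4 and of 259026.5, 164922.5, 291722 and 233412 on Tsc1 cKO arrays 1 to 4. All 4 Tsc1 cKO arrays lay below the lowest Ctrl array. Of all mature names, 4 (0.924%) were separated in this way, and miR-615 was the only member among them. The difference was -0.89 (SE 0.24, 95% interval -1.43 to -0.35), a level 1.85-fold lower, with an adjusted limma p of 0.605. In the fit as reported miR-615 had the smallest unadjusted limma p of the 433 names (0.00432). A robust fit with an intensity trend gave an unadjusted limma p of 0.0552. The difference was -0.97 within arrays 1 and 2 and -0.81 within arrays 3 and 4. The separation belongs to the values as deposited. With array medians centred, the Ctrl arrays stood at 3.84, 3.19, 4.13 and 4.03 and the Tsc1 cKO arrays at 2.94, 2.22, 3.43 and 3.24. The ranges then overlapped through Ctrl 2, and the difference was -0.84 (SE 0.31). Its unadjusted limma p was then 0.0289, larger than that of miR-196a-2 (0.00843). Quantile normalization gave -0.49 (SE 0.47, adjusted p = 0.818, limma).

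The mature probes named miR-196a-1 and miR-196a-2 were close to background and lower in Tsc1 cKO. Since the mature RNA of both copies is the same, their values are not assigned to the HoxB or the HoxC gene. miR-196a-1 stood at 0.93, 1.43, 1.00 and 0.39 log2 units above background on Ctrl arrays 1 to 4 and at 0.40, 0.30, 0.30 and 0.18 on Tsc1 cKO arrays 1 to 4. miR-196a-2 stood at 0.88, 1.29, 1.17 and 0.90 on the Ctrl arrays and at 0.35, 0.79, 0.55 and 0.00 on the Tsc1 cKO arrays. On this scale every Tsc1 cKO array lay below every Ctrl array for miR-196a-2, and all but Tsc1 cKO 1 did for miR-196a-1. How many of all names were separated on this scale was not counted, so it is not known how common that is. With array medians centred, miR-196a-2 was also separated, a pattern that 14 of 433 names (3.23%) and 1 of the 8 members showed. As deposited, the groups of both probes overlapped.

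The differences were -0.67 for miR-196a-1 (SE 0.31, 95% interval -1.35 to 0.01) and -0.66 for miR-196a-2 (SE 0.29, -1.30 to -0.03), each with an adjusted limma p of 0.902. In Tsc1 cKO neither probe was more than 1 log2 unit above background on any array. Within arrays 1 and 2 and arrays 3 and 4 the differences were -0.85 and -0.50 for miR-196a-1 and -0.53 and -0.80 for miR-196a-2. Without Tsc1 cKO 4 they were -0.55 and -0.44, and without Ctrl 2 they were -0.45 and -0.53. Quantile normalization gave -0.42 and -0.46, and the 4000B arrays (a scanner label explained below) gave -0.41 and -0.32. Subtraction of the array background gave larger and less precise values, -1.96 (SE 0.66) and -2.64 (SE 1.35).

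The 3rd miR-196a probe, with no copy number, lay at or below background in both groups. Its Ctrl arrays ranged from -1.43 to 0.23 log2 units relative to background and its Tsc1 cKO arrays from -0.37 to 0.36, and its difference was 0.45 (SE 0.36, adjusted p = 1.00, limma). It was the only member that was higher in Tsc1 cKO. After subtraction of the array background it was -0.44, so its direction is not settled. miR-196b, from the HoxA cluster, stood at 0.88, 0.70, -0.46 and -1.42 on Ctrl arrays 1 to 4 and at -0.44, -0.08, -1.18 and -0.52 on Tsc1 cKO arrays 1 to 4. Its Ctrl arrays spread over more than the Tsc1 cKO arrays, and the difference of -0.51 (SE 0.58) was -1.06 within arrays 1 and 2 and 0.05 within arrays 3 and 4. Leaving out Ctrl 1 or Ctrl 2 gave -0.12 and -0.19, leaving out Tsc1 cKO 3 gave -0.24, and leaving out Ctrl 4 gave -1.02. Background subtraction gave -3.12 (SE 1.69).

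miR-10a, of the HoxB cluster, was read by a pair of bright probes. miR-10a stood at 1.40, 2.07, 1.53 and 1.21 log2 units above background on Ctrl arrays 1 to 4 and at 1.52, 1.66, 0.68 and 0.07 on Tsc1 cKO arrays 1 to 4. The probe 10a-1 stood at 1.53, 2.33, 1.34 and 1.02 on the Ctrl arrays and at 1.92, 2.00, 0.78 and 0.34 on the Tsc1 cKO arrays. On both probes Tsc1 cKO 1 and 2 lay within the Ctrl range, and Tsc1 cKO 3 and 4 below it. The differences were -0.60 for miR-10a (SE 0.46, 95% interval -1.62 to 0.43) and -0.32 for 10a-1 (SE 0.53, -1.50 to 0.85).

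Within arrays 1 and 2 the differences were -0.16 for miR-10a and 0.02 for 10a-1, and within arrays 3 and 4 they were -1.03 and -0.66. Without Tsc1 cKO 4 they were -0.21 and 0.06, and without Ctrl 2 -0.36 and -0.0054. The labels name scanner 4000B for 6 arrays, and for Tsc1 cKO 3 and 4 they name 4001B and 4002B, 1 array each. On the 4000B arrays alone the differences were 0.21 and 0.58, but these hold all 4 Ctrl arrays and only the brighter pair of Tsc1 cKO. miR-10b, of the HoxD cluster, ranged from -0.07 to 1.20 in Ctrl and from -0.24 to 0.80 in Tsc1 cKO, was bright on 1 array (Ctrl 2) and differed by -0.19 (SE 0.42). Its value was 0.38 on the 4000B arrays alone and 0.0014 after quantile normalization.

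**Figure D2:**
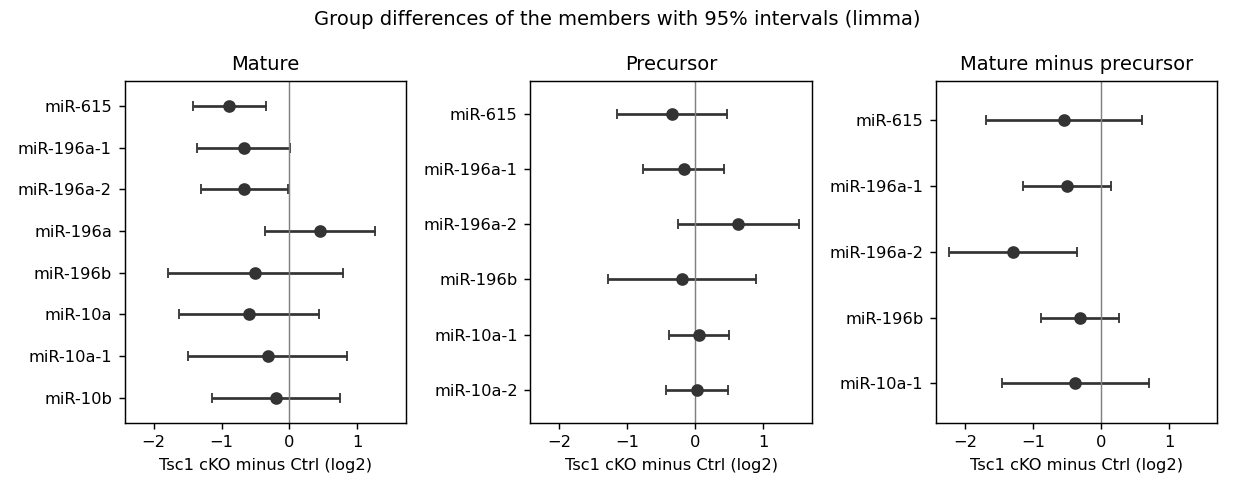
Differences between Tsc1 cKO and Ctrl (x axis, log2; 4 arrays a group) for mature probes, precursor probes and their per-array difference; points are limma estimates and bars 95% intervals. The interval excluded 0 for mature miR-615 and miR-196a-2 and for the difference of forms of miR-196a-2, and 0 of these passed after adjustment.

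Probes of the same miRNA, of sister miRNAs and of miRNAs named for genes in the same Hox cluster were compared by the log ratio of both probes on each array. This gave 12 pairs, tested with a 2-sided exact permutation test over the 70 assignments of the arrays (smallest possible p 0.0286) and adjusted over the pairs. With that smallest p, a pair could pass only if most of the 12 reached it. None of the 12 passed, and the smallest adjusted p was 0.457. The difference of miR-196a-1 minus that of miR-196a-2 was -0.01 (SE 0.21, exact p = 1.00). miR-10a minus 10a-1 was -0.27 (SE 0.13, exact p = 0.114), and 3 of 4 Tsc1 cKO arrays lay below all Ctrl arrays. miR-10a minus miR-10b was -0.40 (SE 0.30, exact p = 0.229).

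The largest values came from the miR-196a probe without a copy number, which lay at or below background. Against miR-196a-2 it gave 1.11 (SE 0.48, exact p = 0.0571), with 3 of 4 Tsc1 cKO arrays above all Ctrl arrays, and against miR-196a-1 it gave 1.12 (SE 0.50, exact p = 0.114). miR-615 minus miR-196a-2 was -0.22 (SE 0.47, exact p = 0.571). miR-10a minus miR-196a-1 was 0.08 (SE 0.35, exact p = 0.886). As mature miR-196a can come from either copy, these last pairs do not compare miRNAs within a Hox cluster. A p that misses the threshold does not show that the probes behaved alike.

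**Figure D3:**
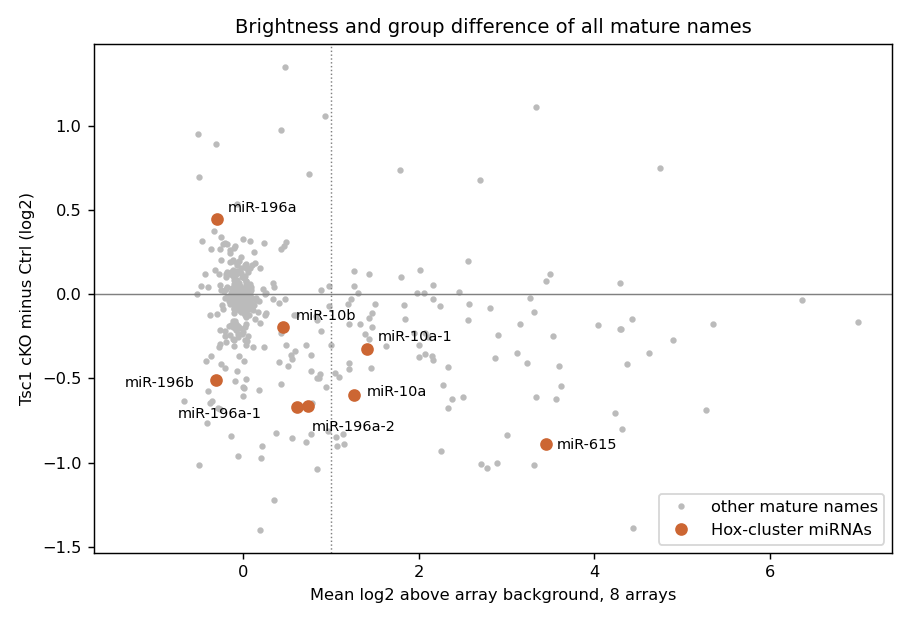
Mean log2 level above array background over 8 arrays (x axis) against the difference between Tsc1 cKO and Ctrl (y axis, log2) for all 433 mature names in grey and the 8 members in orange; the dotted line marks the limit for bright. Of the members, 3 lay to the right of the dotted line (miR-615, miR-10a and miR-10a-1), and 7 lay below 0.

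Precursor probes of the Hox-cluster miRNAs lay at background and showed no difference that passed the test. limma called 0 of 274 precursor names at an adjusted p under 0.05 (0%), and 7 (2.55%) at an unadjusted p under 0.05, of which 0 were members. Of the 6 member probes 0 were bright, 3 were lower and 3 higher in Tsc1 cKO, with a median difference of -0.07, against -0.03 for all precursor names. As deposited 59.1% of all precursor names were lower, against 50.0% with array medians centred and 47.1% after quantile normalization, and 3 of the 6 members were lower in each case.

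The precursor of miR-615 stood at 0.23, -0.45, 0.17 and -0.73 log2 units relative to background on Ctrl arrays 1 to 4 and at -0.40, -0.54, -1.40 and 0.29 on Tsc1 cKO arrays 1 to 4, with a difference of -0.34 (SE 0.37). The groups overlapped, and without Tsc1 cKO 3 the difference was 0.0086. The precursor of miR-196a-2 stood at -0.56, -1.12, 0.17 and -1.76 on the Ctrl arrays and at -0.34, 0.41, -0.58 and -0.13 on the Tsc1 cKO arrays. This probe had the largest precursor difference of the members, 0.63 (SE 0.41, adjusted p = 0.999, limma), from values mostly below background. It was 0.25 without Ctrl 4 and 0.37 without Tsc1 cKO 2. For miR-196a-1 all arrays but Tsc1 cKO 3 (-0.72) lay between 0.01 and 0.12.

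The precursor probes miR-10a-1 and miR-10a-2 stayed within -0.24 to 0.01 log2 units of background on all 8 arrays, and their differences were 0.06 (SE 0.20) and 0.02 (SE 0.21). Only the precursor of miR-196b was bright on any array, at 1.04 on Ctrl 2. It stood at 0.46, 1.04, -0.08 and -0.81 on Ctrl arrays 1 to 4 and at 0.14, 0.76, -0.65 and -0.31 on Tsc1 cKO arrays 1 to 4, and differed by -0.19 (SE 0.49). In both groups arrays 1 and 2 lay above arrays 3 and 4.

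**Figure D4:**
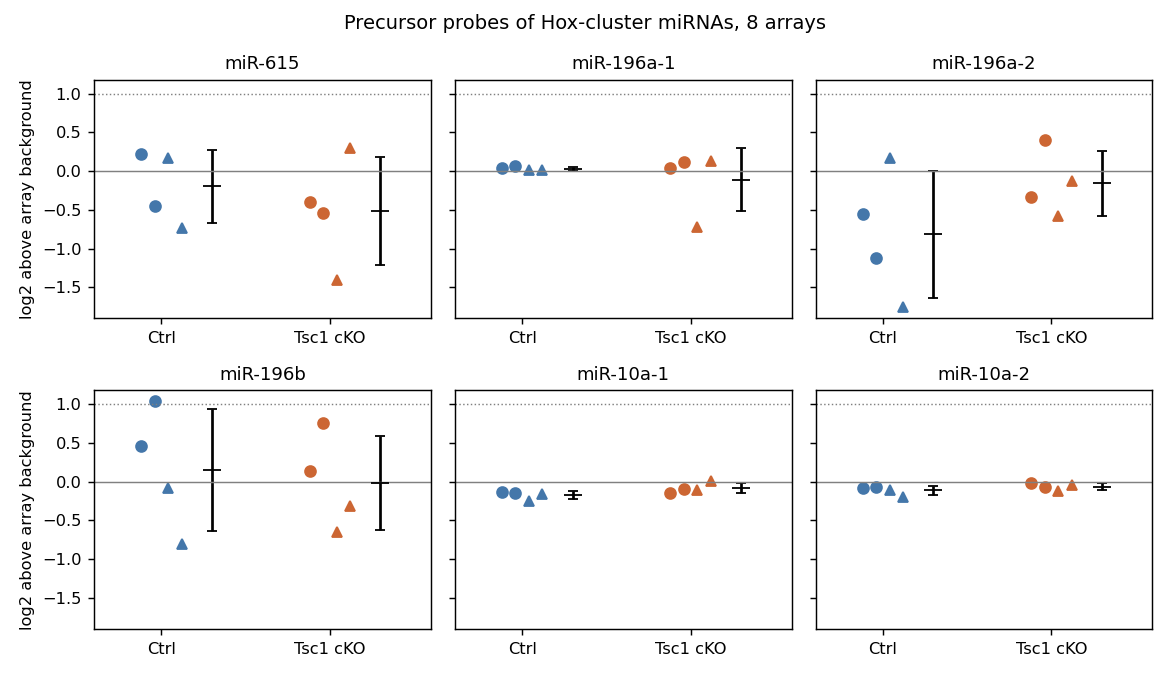
Precursor probes of the Hox-cluster miRNAs, as log2 units above the background of the same array (y axis) in the 4 Ctrl and 4 Tsc1 cKO arrays; circles are arrays 1 and 2, triangles arrays 3 and 4, bars the mean and SD. The probes lay around 0, and 1 value, that of miR-196b on Ctrl 2, passed the dotted line for bright.

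The title of the series concerns miRNA biogenesis, so mature minus precursor log2 values of the same array were compared between the groups for the 5 members with both forms. limma called 0 of 263 matched names at an adjusted p under 0.05 (0%), and 17 (6.46%) at an unadjusted p under 0.05, among them 1 of the 5 members, miR-196a-2. All 5 members had a negative value, with a median of -0.50, against 139 of 263 matched names (52.9%) and a median of -0.02. Within arrays 1 and 2, and within arrays 3 and 4, 4 of the 5 were negative. The precursor probes of all 5 lay at or near background, so these values were taken against probes without clear signal and do not measure a change in biogenesis. For miR-196a-2 mature minus precursor was 1.44, 2.41, 1.00 and 2.66 on Ctrl arrays 1 to 4 and 0.69, 0.38, 1.13 and 0.13 on Tsc1 cKO arrays 1 to 4. Only Tsc1 cKO 3 reached into the Ctrl range. The difference was -1.29 (SE 0.41, 95% interval -2.24 to -0.35, adjusted p = 0.327, limma), -1.39 within arrays 1 and 2 and -1.20 within arrays 3 and 4.

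Of that difference, -0.66 came from the mature probe and 0.63 with the opposite sign from the precursor probe, which lay below background on all Ctrl arrays but Ctrl 3. For miR-615 mature minus precursor was 3.69, 3.74, 4.03 and 4.85 in Ctrl and 3.40, 2.84, 4.91 and 2.97 in Tsc1 cKO. Here 3 of 4 Tsc1 cKO arrays lay below all Ctrl arrays, and Tsc1 cKO 3, with the dim precursor value above, was the highest of all 8, so the difference was -0.54 (SE 0.49). The values for miR-196a-1, miR-10a-1 and miR-196b were -0.50 (SE 0.28), -0.38 (SE 0.47) and -0.31 (SE 0.25). For miR-615 the value was -1.01 without Tsc1 cKO 3 and -0.29 without Ctrl 4, and for miR-10a-1 it was -0.0441 without Tsc1 cKO 4.

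Relatives in sequence gave a wider view of the miR-10 and miR-196 families. miR-99a and miR-100 share with miR-10a a run of 10 and 11 bases, respectively, that starts at base 7 of miR-10a and is shifted by 1 base, so that their seeds differ, and miR-125, often grouped with them, has been studied for its role in blood stem cells. Of the 7 probe names for miR-99a, miR-99b, miR-100, miR-125a and miR-125b, 7 were lower in Tsc1 cKO and 0 passed the adjusted test, with a median of -0.96 (range -1.40 to -0.25), and 0 of them were bright. At an unadjusted p under 0.05 limma gave 4 of the 7. Of all mature names 64.9% were lower, and 4.39% had an unadjusted p under 0.05. miR-100 differed by -0.82 (SE 0.36), miR-99a by -0.97 (SE 0.35) and miR-99b by -0.49 (SE 0.32). The probes miR-125b-2, miR-125b-1, miR-125b and miR-125a differed by -1.40 (SE 0.49), -1.22 (SE 0.35), -0.96 (SE 0.58) and -0.25 (SE 0.36).

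Of the 13 names of the let-7 family, which holds the seed letters of miR-196 at a shift of 1 base in let-7a, 12 were lower and 0 passed the adjusted test, with a median of -0.83 and 5 at an unadjusted p under 0.05. Of these 13 names 8 were bright, and 80.6% of all bright mature names were lower. The count of 5 was 8 within arrays 1 and 2, 0 within arrays 3 and 4 and 3 without Tsc1 cKO 4. Among all 433 mature names the counts in these settings were 41, 17 and 23. With array medians centred, after quantile normalization and without Tsc1 cKO 4, 12 of the 13 were lower each time. In the same order, 76.3%, 51.6% and 49.5% of the bright names were lower. These lists and their directions were known from earlier results on the same arrays, so they are no separate evidence.

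Among the 93 bright mature names, those whose pattern over the 8 arrays was most like a bright member were found by Pearson correlation of values centred on the array medians. For miR-615 these were miR-690 (r = 0.86), miR-494 (0.78) and let-7a-1 (0.73), which differed by -0.80, -1.39 and -1.01 between the groups. For miR-10a they were miR-26b (0.96), miR-21 (0.95) and miR-142-5p (0.94), which differed by -0.41, -0.41 and -0.30. For 10a-1 they were miR-223 (0.95), miR-10a (0.94) and miR-17-5p (0.93), which differed by -0.27, -0.60 and -0.15. Group means were not removed, so names were picked in part by the group difference itself, and their differences are no separate evidence. The arrays share their brightness sets, and the values describe likeness over 8 arrays and no more. None of the names closest to miR-615 was among those closest to miR-10a, and the difference between these patterns was not tested.

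**Figure D5:**
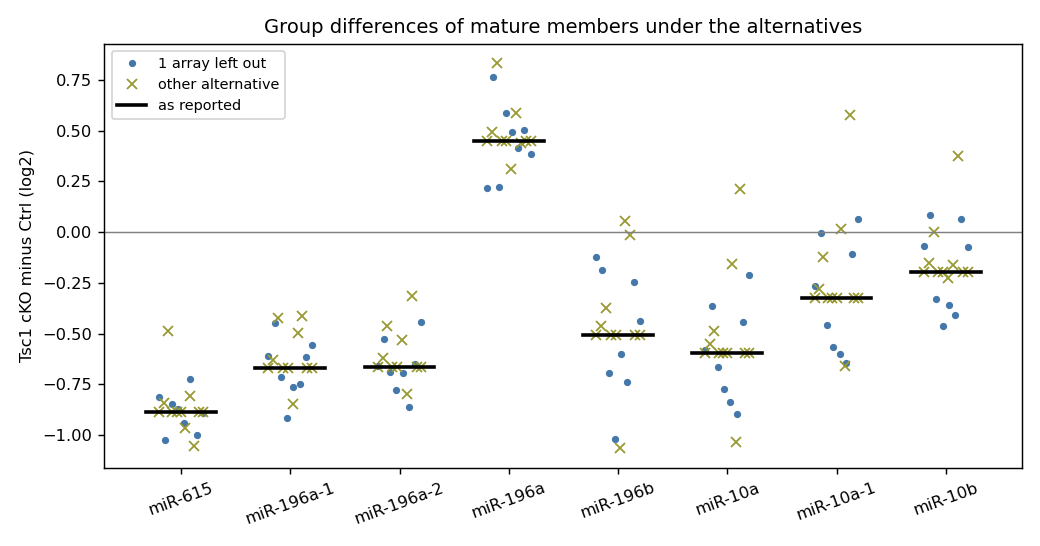
Difference between Tsc1 cKO and Ctrl (y axis, log2) of the 8 mature probes as reported (black line), with 1 array left out (blue points) and under the other alternatives (crosses), subtraction of the background not drawn. The values of miR-615, miR-196a-1 and miR-196a-2 lay below 0 in every case drawn, and those of miR-10a, 10a-1, miR-10b and miR-196b crossed 0 in at least 1 case.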

How the data were processed

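The members and gene lists were chosen with earlier results of these data known. Per the labels, the authors labelled 5 µg of total RNA per sample with biotin and detected it on 1-colour arrays by streptavidin-Alexa647 and an Axon instrument. The deposited values are intensities on a linear scale, called normalized (scaled) signal by a template comment in the file header. Per the labels and headers, the method of scaling, background treatment and filtering is not stated. A further table equalled the mature table in every cell and was not used.

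Intensities were transformed to log2(value + 1) and probes of the same name were averaged (521 mature rows gave 433 names, 300 precursor rows gave 274). R 4.3.3 with limma 3.58.1 (lmFit, eBayes, Benjamini-Hochberg threshold 0.05) was fitted to each whole table and to the 263 matched differences of forms, without a block. All members were named, along with the 3 bright names most correlated with each bright member. Scripts were tested on simulated data. Pair tests used Python 3.11.15, and sequences came from RefSeq. The labels call the samples biological replicates.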

Additional observations from a re-analysis of the deposited data

How the results depend on the processing

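Under every alternative limma called 0 mature names, 0 precursor names and 0 differences of forms at the adjusted threshold. The same was true of the 12 pairs, but their exact test could hardly pass (smallest p 0.0286 before adjustment) and could not pass within arrays 1 and 2 or arrays 3 and 4, so it says nothing about stability. At an unadjusted p under 0.05 the count of mature names was 19 as reported and moved by more than 1.5 times with array medians centred (30), quantile normalization (32), bright names only (8, from fewer names), the brightness sets as a block (38), arrays 1 and 2 only (41), scanner 4000B only (30) and without Ctrl 4 (34). With the replicate block it was 48 (lowest adjusted p = 0.0581, that of miR-615). The replicate numbers were not treated as pairs, since the design text states no pairing. Deviations of same-numbered arrays from their group means correlated at r of 0.10, 0.35, 0.0927 and 0.33, and those of other numbers at -0.46 to 0.45. 3 of 4 Ctrl arrays correlated best with the Tsc1 cKO array of their own number. These values do not settle whether the numbers pair the arrays. With the replicate block the SE of mature miR-615 was 0.0856, against 0.24 as reported. For precursors the count of 7 ranged from 0 (bright names only) to 20 (arrays 1 and 2 only), was 15 with the replicate block, 15 on 4000B arrays, 11 on arrays 3 and 4, 12 with the brightness block and 12 after background subtraction, and 2 to 13 with an array left out. For differences of forms the count of 17 was 29 with the replicate block, 26 with the brightness block, 10 on arrays 3 and 4 and 6 among bright names. With every probe row kept apart, forms could not be matched.

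The signs of mature miR-615, miR-196a-1 and miR-196a-2 held under all alternatives (-1.06 to -0.49, -1.96 to -0.41 and -2.64 to -0.32). Values that changed sign are listed next, and the causes were not tested. Background subtraction gave -0.44 for mature miR-196a, 0.93, -0.027 and -0.027 for precursor miR-196a-1, miR-10a-1 and miR-10a-2, and for pairs 1.66 (miR-615 minus miR-196a-2), 0.68 (miR-196a-1 minus miR-196a-2), 1.15 (miR-196a-1 minus miR-196b) and 0.47 (miR-196a-2 minus miR-196b). Quantile normalization gave 0.0014 for mature miR-10b, 0.0386 for miR-196a-1 minus miR-196a-2 and -0.0669 for miR-10a minus miR-196a-1. Arrays 1 and 2 gave 0.0154 for mature miR-10a-1, 0.0103 for its difference of forms, 0.0084 for precursor miR-196a-1, and for pairs 0.0674 (miR-10a minus miR-10b), 0.24 (miR-10a-1 minus miR-10b), 0.22 (miR-196a-1 minus miR-196b) and 0.54 (miR-196a-2 minus miR-196b). Arrays 3 and 4 gave 0.0527 for mature miR-196b, 0.13 for its difference of forms, and for pairs -0.54 (miR-10a minus miR-196a-1), -0.16 (miR-10a-1 minus miR-196a-1) and 0.30 (miR-196a-1 minus miR-196a-2). The 4000B arrays gave 0.21, 0.58 and 0.38 for mature miR-10a, miR-10a-1 and miR-10b, 0.22 and 0.47 for precursor miR-196a-1 and miR-196b, 0.35 for the forms of miR-10a-1 and 0.20 for miR-10a-1 minus miR-10b.

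With 1 array left out, values that changed sign ranged from -0.64 to 0.0629 (mature miR-10a-1), -0.46 to 0.0824 (miR-10b), and for precursors -0.58 to 0.0086 (miR-615), -0.0287 to 0.14 (miR-10a-1), -0.0668 to 0.10 (miR-10a-2), -0.32 to 0.0886 (miR-196a-1) and -0.58 to 0.16 (miR-196b). Pairs ranged from -0.50 to 0.14 (miR-615 minus miR-196a-2), -0.15 to 0.34 (miR-10a minus miR-196a-1), -0.24 to 0.14 (miR-10a-1 minus miR-10b), -0.14 to 0.11 (miR-196a-1 minus miR-196a-2), -0.49 to 0.10 (miR-196a-1 minus miR-196b) and -0.53 to 0.24 (miR-196a-2 minus miR-196b). Signal over background limits all precursor values and differences of forms, and all mature values but miR-615; mature miR-10a was bright on only 2 of 4 Tsc1 cKO arrays.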
